A study of Mus musculus with 6 samples.

Results

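The Serpin family was followed in mesenchymal stem cells from mouse bone marrow after an siRNA against Dia2. Every row of the deposited gene table whose symbol begins with Serpin was taken, which gave 63 of 23358 rows, in clades A to I. The choice used symbols alone and no measured value. The cells were of strain C57BL/6 at passage 6 to 12 and received either the Dia2 siRNA at 50 nM (3 libraries, the Dia2 group) or a non-targeting control siRNA (3 libraries, the control group). Dia2 is a formin, a protein that lengthens actin filaments, and is encoded by Diaph3. Cells adhered for 24 h, were transfected overnight in both groups, and RNA was taken 24 h after the medium was changed. The design text states 1 sequence for the Dia2 siRNA, so no other siRNA against the gene stands beside it. Nothing in the labels ties the 3 libraries of a group to separate cultures, and their spread, on which every p-value rests, may therefore be technical.

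Serpins are folded around a flexible reactive centre loop that acts as bait for a protease. When the protease cuts the loop, an inhibitory serpin changes shape and holds the enzyme in a covalent complex, so each molecule is used once. Clade A holds antitrypsin and its relatives, which are mostly secreted by the liver, and clade B holds serpins that lack a classical secretion signal and act mostly inside cells. Clades E, F, G and I hold inhibitors of plasminogen activators, plasmin and complement enzymes together with members that inhibit nothing, while clade H is the collagen chaperone Hsp47. In marrow stroma the family is known for Serpine2, Serpinf1 and Serpinh1, among others.

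The gene counts summed to 78529650 to 95573070 in the Dia2 libraries and to 70538768 to 110006338 in the control libraries, and all were even numbers, as if each fragment added 2. Serpin rows held 0.36% to 0.381% of them in the Dia2 libraries and 0.27% to 0.309% in the control libraries. The targeted gene Diaph3 stood at 7.52 to 8.37 CPM (counts scaled to a common library size with TMM factors) in the Dia2 libraries and at 80.1 to 84.8 CPM in the control libraries. The ribosomal precursor Rn45s was highest in Dia2 replicate 1 (10.9% of counts) and control replicate 3 (11.7%), against 6% to 7.41% in the other libraries. Of the 11 mesenchymal markers 10 passed the filter on low counts. Of these 9 were called higher with Dia2 siRNA, beside 29.3% of all genes tested. The list summed to 5250 to 5320 CPM in the Dia2 libraries and 2910 to 3210 CPM in the control libraries. Most of these sums came from Cxcl12 and Itgb1. Cxcl12 had means of 2100 and 815 CPM in the Dia2 and control groups, and Itgb1 1830 and 1430 CPM. The stromal antigen gene Thy1 was scarce in both groups, at means of 0.0356 and 0.02 CPM in the Dia2 and control groups.

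Of the 63 Serpin rows, 17 had no count in any library, 23 had counts but did not pass the filter, and 23 passed it and were tested. Among the tested rows 11 were higher and 6 lower with Dia2 siRNA at an adjusted p under 0.05 (edgeR's quasi-likelihood test, Benjamini-Hochberg adjustment over 14151 genes), and 6 did not pass. That is 73.9% of the tested members, beside 59.2% of all genes tested, 29.3% higher and 29.9% lower. A gene scarce in 1 group can pass the filter only through the other, so these shares describe the tested rows and not the family. Changes of at least 2-fold were called in 5 higher and 5 lower members, 43.5% of those tested, beside 8.58% of all genes. Of these falls, Serpinb9c, Serpinb9d and Serpinb9e lay near the cutoff and missed it under some other settings of the analysis. The groups did not overlap for 18 members, 78.3%, beside 64.6% of all genes. The median log2 fold change was 0.24 over the tested members and 0.01 over all genes, and its median absolute size was 0.66 against 0.3. All log2 fold changes are Dia2 over control, with their SE. The RNA is from bulk cultures, in which fewer cells of a type and less RNA per cell cannot be told apart.

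The family's transcript pool was concentrated in a few genes. On the deposited RPKM scale, which divides by coding length and allows levels of different genes to be compared, the 5 most abundant members, with Serpinh1, Serpinf1 and Serpinb6a in front, together held 98.0% to 98.2% of the summed Serpin RPKM in the Dia2 libraries and 97.8% to 98.2% in the control libraries. Serpinh1 alone held 53.0% with Dia2 siRNA and 50.0% with control siRNA. The first 6 places were in the same order in both groups, from Serpinh1 down to Serpinb9, and no library of one of these genes reached the range of the next within a group. Below them the order differed. Serpinb1a stood at rank 10 in the Dia2 group and rank 16 in the control group, and Serpinb9g at rank 15 and rank 9. Below the sixth place neighbours often overlapped, so their order is not resolved: Serpinb6b with Serpinb9b and Serpinb8 with Serpinb1a in the Dia2 group, and Serpinb9c, Serpinb9g and Serpinb2 in the control group. RPKM carries no correction for composition, and changes between groups were tested on the counts.

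**Figure D1:**
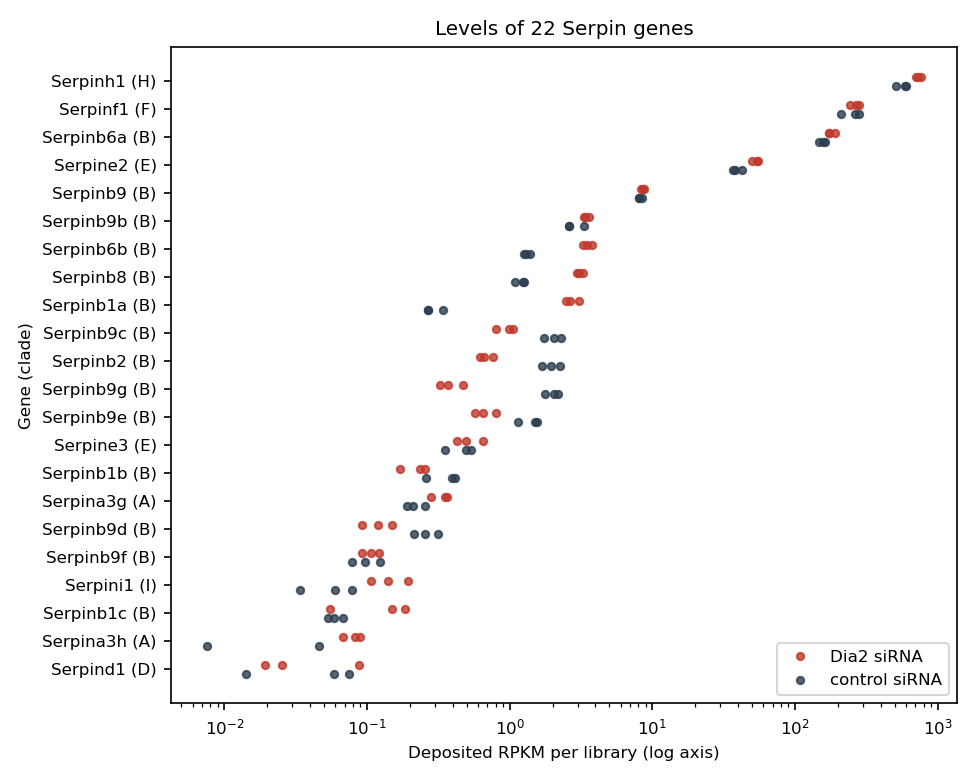
Deposited RPKM (log axis) of 22 tested Serpin genes, 1 point per library, Dia2 libraries above control libraries in each row, ordered by the mean over the 6 libraries; the control library of Serpina3h with a value of 0 is not drawn. Serpinh1 leads at means of 736 RPKM in the Dia2 group and 569 RPKM in the control group, and the Serpinb1a points of the groups lie far apart at 2.74 and 0.292 RPKM.

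Clade H has 1 gene, Serpinh1, whose product Hsp47 binds procollagen in the endoplasmic reticulum, helps it fold and inhibits no protease. Serpinh1 had 2180, 2130 and 2180 CPM in Dia2 replicates 1, 2 and 3, against 1680, 1660 and 1550 CPM in control replicates 1, 2 and 3. Every Dia2 library lay above every control library. Serpinh1 averaged 2170 ± 26.6 CPM in the Dia2 group and 1630 ± 72.8 CPM in the control group (SD, n = 3 each). The log2 fold change was 0.41 ± 0.04 (edgeR adjusted p = 8.17e-06). Most of the tested mesenchymal markers above were higher as well, and their part in this result was not tested. None of its 50-base windows occurs in a GENCODE transcript of another gene.

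The genes that work with Hsp47 on collagen were also mostly higher. In a list of 25 collagen chains and folding enzymes every gene was tested. Of these 20 were higher and 2 lower, beside 29.3% and 29.9% of all genes, 3 missed the threshold, and the list had a median log2 fold change of 0.36 beside 0.01 over all genes. Col5a1, a fibril-forming chain, rose at 0.88, the cartilage collagen gene Col2a1 at 2.11, the prolyl hydroxylase gene P4ha1 at 0.73 and Fkbp14, a prolyl isomerase of the endoplasmic reticulum, at 0.68. Hspa5, the general chaperone of that compartment, fell at -0.30, and Plod1, a lysyl hydroxylase, at -0.16. Hsp90b1, a further general chaperone, did not pass at -0.03 (adjusted p = 0.608, edgeR).

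In clade E, Serpine2 encodes protease nexin-1, an inhibitor of thrombin and of the urokinase-type activator that sits on the cell surface and matrix. It had 130, 132 and 131 CPM in the Dia2 replicates, against 87.1, 99.6 and 96.2 CPM in the control replicates, a log2 fold change of 0.48 ± 0.05 (edgeR adjusted p = 8.5e-06). The 3 Dia2 libraries were nearly level and all exceeded the controls. Serpine3, whose inhibitory targets are little known, was scarce at 0.877, 0.708 and 1.07 CPM with Dia2 siRNA and 0.801, 0.56 and 0.928 CPM with control siRNA. Its groups overlapped (0.22 ± 0.25, edgeR adjusted p = 0.48). It shares 348 exonic bases with Ints6 on the opposite strand, whose reads cannot be told apart where the counting strand is not given. Ints6 was far more abundant, at means of 38.6 CPM in the Dia2 group and 41.8 CPM in the control group. The part of Ints6 reads in the Serpine3 values was not tested.

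Clade F was carried by Serpinf1. Its product, pigment epithelium-derived factor, is a secreted glycoprotein that restrains vessel growth, takes part in bone mineralisation and inhibits no protease. Serpinf1 had 459, 479 and 487 CPM in the Dia2 replicates, against 454, 479 and 389 CPM in the control replicates. The groups overlapped, with control replicate 3 low, and the test was not passed (log2 fold change 0.11 ± 0.07, edgeR adjusted p = 0.194). Serpinf1 was thus the second most abundant Serpin by RPKM in both groups without a called change. Serpinf2, the plasma inhibitor of plasmin, had 6, 10 and 4 counts in the Dia2 libraries and 22, 18 and 6 in the control libraries and did not pass the filter.

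Clade I had 1 tested gene. Serpini1 encodes neuroserpin, which inhibits the tissue-type plasminogen activator and is best known from neurons. It had 42, 38 and 66 counts (0.558, 0.396 and 0.705 CPM) in the Dia2 libraries, against 32, 10 and 16 counts (0.285, 0.122 and 0.232 CPM) in the control libraries. No Dia2 library fell into the control range, and the log2 fold change was 1.35 ± 0.37 (edgeR adjusted p = 0.00791). Of 5 neuronal markers 2 were tested, Tubb3 and Map2, and both were higher, beside 29.3% of all genes tested. The list summed to 28.2 to 30.3 CPM in the Dia2 libraries and 16.9 to 18.7 CPM in the control libraries. Nearly all of it came from Tubb3 and Map2, and the defining neuronal gene Rbfox3 was at 0 in every library. The part of these markers in the Serpini1 result was not tested. Serpini2, a pancreatic serpin, had no count.

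Clades C, D and G were near the detection floor of 6 counts a library, which is 3 fragments if each added 2 and covers counting error only. Serpinc1, the antithrombin gene, had 22, 0 and 8 counts in the Dia2 libraries and 18, 6 and 8 in the control libraries. In GENCODE it shares 2942 exonic bases with Zbtb37 on the opposite strand. Serpind1, the gene of heparin cofactor II, had 4, 22 and 6 counts in the Dia2 libraries and 4, 12 and 14 in the control libraries, and it was not called (log2 fold change 0, edgeR adjusted p = 1). Serping1, which encodes the C1 inhibitor of the complement cascade, had 2, 4 and 12 counts in the Dia2 libraries and 2, 2 and 0 in the control libraries. Serpinc1 and Serping1 did not pass the filter, and without the filter neither was called (edgeR adjusted p = 0.99 and 0.193).

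Clade A, the largest secreted group with 25 rows, was almost silent. Its rows together had 110, 124 and 144 counts in the Dia2 libraries and 80, 76 and 62 counts in the control libraries. Of these rows 8 had no count, 15 more had counts but did not pass the filter, and only Serpina3g and Serpina3h were tested. The hepatocyte markers Ttr and Fgb were at 0 in every library, Alb was at a mean of 0.0141 CPM in the Dia2 group and 0 in the control group, and Apob, the only one of 6 hepatocyte markers tested, did not pass (-0.07, adjusted p = 0.424, edgeR).

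Serpina3g, one of the mouse copies related to antichymotrypsin and an inhibitor of cathepsins, had 54, 82 and 80 counts (0.718, 0.854 and 0.855 CPM) in the Dia2 libraries, against 50, 48 and 36 counts (0.445, 0.584 and 0.522 CPM) in the control libraries. The groups did not overlap after scaling (log2 fold change 0.66 ± 0.23, edgeR adjusted p = 0.0285). The call was lost without control replicate 1 (0.54, adjusted p = 0.103), Dia2 replicate 2 (0.61, adjusted p = 0.0884) or Dia2 replicate 3 (0.61, adjusted p = 0.0863), in the same edgeR test. Serpina3h, annotated in GENCODE as a transcribed pseudogene, had 16, 16 and 20 counts in the Dia2 libraries and 2, 0 and 8 in the control libraries. It passed the filter only through the Dia2 group, its log2 fold change was 2.30 ± 0.73 (edgeR adjusted p = 0.0173), and the call was lost without control replicate 1 (1.83, adjusted p = 0.094) or 2 (1.74, adjusted p = 0.0608). These copies share sequence, with 15.5% of the 50-base windows of Serpina3g and 21.9% of those of Serpina3h found in other genes, and the deposited span of Serpina3g also covers Serpina3f.

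The antitrypsin genes proper were at the floor. Serpina1a had 6, 2 and 4 counts and Serpina1f 8, 8 and 4 counts in the Dia2 libraries, and both had 0 in every control library. The other 4 antitrypsin rows, Serpina1b to Serpina1e, had no count anywhere. These rows were not tested in the filtered table, and Serpina1a shares 57.6% of its 50-base windows with other genes. Serpina3n, an acute-phase serpin, had 6, 8 and 10 counts in the Dia2 libraries and 4, 0 and 0 in the control libraries.

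Clade B held all 6 called falls and the greatest rise. Of its 27 rows 14 were tested, with 5 higher, 6 lower and 3 uncalled, and 3 of the rises and 5 of the falls were at least 2-fold (beside 5.82% and 2.76% of all genes tested for such rises and falls). Of 9 blood and macrophage markers 5 were tested, 3 were lower and none higher, beside 29.9% and 29.3% of all genes tested. Csf1r and Lyz2 did not pass, at 0.03 and 0.48 (edgeR adjusted p = 0.877 and 0.0935). Itgam, not tested, had 10, 6 and 6 counts in the Dia2 libraries and 0, 2 and 0 in the control libraries. The list summed to 6.19 to 8.21 CPM in the Dia2 libraries and 11.2 to 12.5 CPM in the control libraries. The pan-leukocyte gene Ptprc lay at means of 0.0374 CPM in the Dia2 group and 0.00593 CPM in the control group. Neutrophil and mast cell markers summed to 6.56 to 9.17 CPM in the Dia2 libraries and 12.8 to 16.1 CPM in the control libraries, nearly all of it Kit, with S100a9 at 0 throughout. Keratinocyte and epithelial markers summed to 14.2 to 14.7 CPM in the Dia2 libraries and 5.77 to 7.28 CPM in the control libraries. Nearly all of it was Trp63, at means of 14.2 CPM in the Dia2 group and 6.33 CPM in the control group. Trp63 was the only one of 7 tested and was higher, beside 29.3% of all genes tested, and Epcam was at 0. Of 6 endothelial markers 3 were tested and 1 was lower, beside 29.9% of all genes tested. That list summed to 0.812 to 0.979 CPM in the Dia2 libraries and 1.34 to 1.51 CPM in the control libraries. The part of these markers in the clade B results was not tested.

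**Figure D2:**
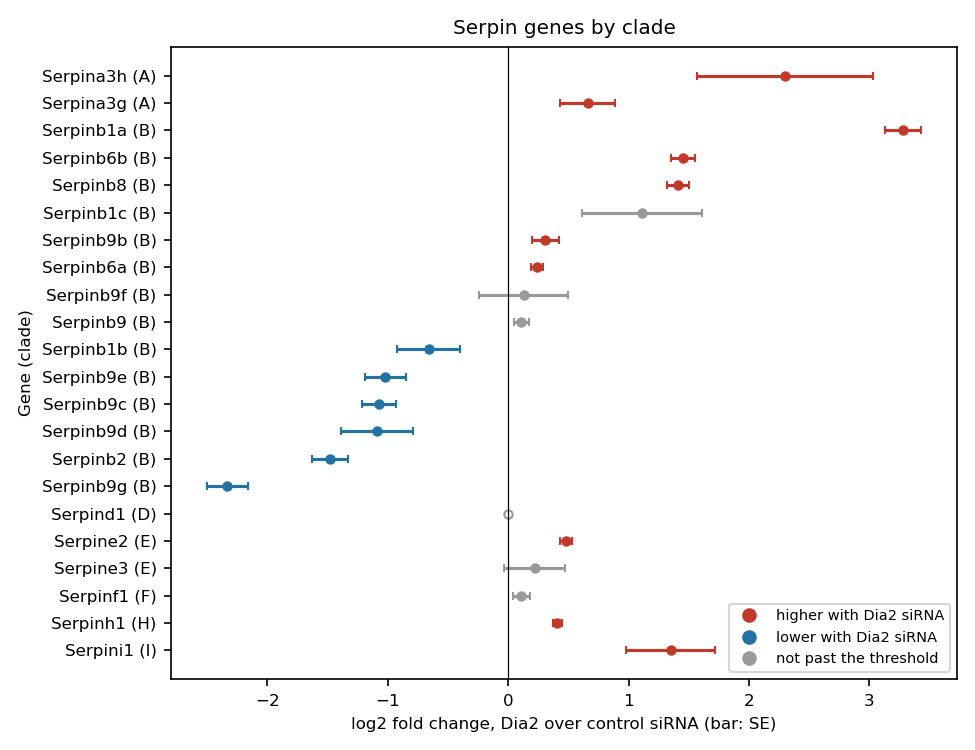
Log2 fold change of Dia2 over control siRNA for 22 tested Serpin genes, grouped by clade from A to I, with bars for the SE and colours for the call; the open point is Serpind1, whose value of 0 has no SE. All 6 called falls lie in clade B, where values range from -2.33 for Serpinb9g to 3.28 for Serpinb1a, while Serpine2 and Serpinh1 lie at 0.48 and 0.41.

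Serpinb1a had the greatest rise among the tested members. Its product belongs to the leukocyte elastase inhibitors, which protect cells from the serine proteases of neutrophil granules. The gene lies on chromosome 13 at 32842092 to 32851185 (GRCm38). It had 450, 678 and 552 counts (5.98, 7.06 and 5.9 CPM) in the Dia2 libraries, against 66, 48 and 56 counts (0.587, 0.584 and 0.812 CPM) in the control libraries. The lowest Dia2 library was several times the highest control library, and the log2 fold change was 3.28 ± 0.15, or 9.69-fold (edgeR adjusted p = 7.37e-09).

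The mouse copies of Serpinb1a were scarce in both groups. Serpinb1b, whose coding sequence is 90.1% identical to that of Serpinb1a, had 0.372, 0.521 and 0.47 CPM in the Dia2 libraries and 0.819, 0.779 and 0.551 CPM in the control libraries, a log2 fold change of -0.66 ± 0.26 that barely passed (edgeR adjusted p = 0.0477) and was lost under 11 of the 16 alternatives that gave it a value. Leaving out any library other than control replicate 3 lost it (adjusted p = 0.0586 to 0.163). Serpinb1c, 88.4% identical to Serpinb1a, had 28, 10 and 26 counts in the Dia2 libraries and 14, 8 and 8 in the control libraries and did not pass (1.11 ± 0.50, adjusted p = 0.0756), but it passed without Dia2 replicate 2 (1.5, adjusted p = 0.016). Only 2.81% of the 50-base windows of Serpinb1a occur in another gene, by exact match. Serpinb1a held 87.3% to 90.9% of the summed RPKM of the 3 copies in the Dia2 libraries, while in the control libraries Serpinb1b led in 2 libraries with 55.3% each and Serpinb1a in 1 with 51.9%.

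The Serpinb6 genes were higher in the 2 members tested. Serpinb6a encodes an intracellular inhibitor of trypsin-like and neutrophil proteases and was the most abundant clade B gene. It had 415, 427 and 380 CPM in the Dia2 replicates and 341, 349 and 344 CPM in the control replicates, with Dia2 replicate 3 nearest to the controls (log2 fold change 0.24 ± 0.05, edgeR adjusted p = 0.00159). Exons of 3 genes of the opposite strand overlap it in GENCODE, over 762 bases for Nqo2, 584 for 1110046J04Rik and 241 for Ripk1, with log2 fold changes of 0.02, -0.46 and 0.12. At means of 44.9, 4.07 and 61.9 CPM in the Dia2 group and 44.3, 5.58 and 57.2 CPM in the control group these genes had far fewer counts. Transcripts of other genes hold 25.1% of the 50-base windows of Serpinb6a.

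Serpinb6b, a related copy with 81.5% coding identity to Serpinb6a, had 8.16, 8.31 and 7.12 CPM in the Dia2 replicates and 2.71, 2.95 and 2.99 CPM in the control replicates. The ranges were wide apart, at a log2 fold change of 1.45 ± 0.10 or 2.74-fold (edgeR adjusted p = 1.6e-07). Serpinb6c, Serpinb6d and Serpinb6e did not pass the filter, with at most 20, 14 and 6 counts in a library.

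Serpinb2 and Serpinb8 lie close together on chromosome 1 and moved in opposite directions. Serpinb2 encodes plasminogen activator inhibitor 2, found mainly inside macrophages and keratinocytes. It had 1.99, 1.6 and 1.47 CPM in the Dia2 replicates and 5.27, 3.92 and 4.9 CPM in the control replicates, a log2 fold change of -1.48 ± 0.15 or 2.8-fold lower (edgeR adjusted p = 4.33e-06). Serpinb8, known in humans as an inhibitor of furin, had 12.4, 12.8 and 11.6 CPM in the Dia2 replicates and 4.15, 4.75 and 5.05 CPM in the control replicates (1.41 ± 0.09, 2.65-fold, edgeR adjusted p = 8.47e-08). The groups overlapped for neither gene, as was so for 64.6% of all genes tested. Of the 50-base windows of Serpinb2, 10.4% also occur in Serpinb10. Serpinb10-ps, listed between them, had at most 2 counts, and 9 other clade B rows of this cluster, among them Serpinb5 (maspin) and the Serpinb3 genes, had at most 6 counts in any library.

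Their promoters are shown because these neighbours moved apart. Each runs from 250 bases before to 50 after the gene start, 5′ to 3′ on the plus strand, from RefSeq (GRCm38.p6), at chr1:107511173-107511472 for Serpinb2 and chr1:107589756-107590055 for Serpinb8. Capitals mark the TATA box TATAAA and the AP-1 site TGANTCA, searched on both strands.
Serpinb2: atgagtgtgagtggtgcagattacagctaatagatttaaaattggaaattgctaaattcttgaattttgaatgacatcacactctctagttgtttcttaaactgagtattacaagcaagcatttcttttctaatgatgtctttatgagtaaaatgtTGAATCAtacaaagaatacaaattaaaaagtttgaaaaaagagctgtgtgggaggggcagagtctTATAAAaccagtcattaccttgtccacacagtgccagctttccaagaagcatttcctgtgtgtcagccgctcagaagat
Serpinb8: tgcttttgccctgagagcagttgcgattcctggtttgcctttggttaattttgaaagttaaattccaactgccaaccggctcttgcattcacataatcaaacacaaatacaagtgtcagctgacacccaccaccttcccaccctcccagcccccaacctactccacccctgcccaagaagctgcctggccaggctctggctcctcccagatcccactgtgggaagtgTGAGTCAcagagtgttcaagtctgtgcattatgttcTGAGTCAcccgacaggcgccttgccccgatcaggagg
The Serpinb2 promoter holds TATAAA starting 29 bases and TGANTCA starting 94 bases before the gene start. The Serpinb8 promoter holds TGANTCA starting 23 bases before and 13 bases after the gene start, and no TATAAA. Of 32851 mouse promoters of this length in the table, 13.6% hold TATAAA and 7.81% hold TGANTCA. The motifs do not overlap in either sequence.

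The Serpinb9 copies did not all move one way. Serpinb9 encodes the inhibitor of granzyme B that shields cells from their own or a neighbour's cytotoxic granules, and several of the mouse copies are known from the placenta. Serpinb9 itself had 35.7, 34.9 and 34.7 CPM in the Dia2 replicates and 32.9, 31.2 and 33.6 CPM in the control replicates, and did not pass (0.11 ± 0.06, edgeR adjusted p = 0.112) although the ranges did not overlap. Without control replicate 3 it passed (0.13, adjusted p = 0.0407, edgeR), and also with upper-quartile scaling (0.14, adjusted p = 0.0423). Serpinb9b, 85.5% identical to Serpinb9 in coding sequence, had 8.8, 7.77 and 7.48 CPM in the Dia2 replicates and 7.41, 5.7 and 6.18 CPM in the control replicates (0.31 ± 0.11, edgeR adjusted p = 0.0251). That call was lost without control replicate 2 (0.22, adjusted p = 0.117), without Dia2 replicate 1 (0.24, adjusted p = 0.112), and without both libraries rich in Rn45s (0.21, adjusted p = 0.113).

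Serpinb9g fell most among the tested Serpin genes. It had 86, 82 and 68 counts (1.14, 0.854 and 0.727 CPM) in the Dia2 libraries, against 542, 318 and 336 counts (4.82, 3.87 and 4.87 CPM) in the control libraries. The groups were widely separated, at a log2 fold change of -2.33 ± 0.17 or 5.03-fold lower (edgeR adjusted p = 2.82e-07). Serpinb9c had 2.45, 1.85 and 2.39 CPM in the Dia2 replicates and 5.18, 3.9 and 4.93 CPM in the control replicates (-1.07 ± 0.14, edgeR adjusted p = 4.76e-05). Serpinb9e had 1.94, 1.48 and 1.28 CPM in the Dia2 replicates and 3.44, 3.29 and 2.7 CPM in the control replicates (-1.02 ± 0.17, edgeR adjusted p = 0.000207). In none of these 3 genes did a Dia2 library reach the control range. Among all genes tested the groups did not overlap in 64.6%.

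The scarcer copies were Serpinb9d and Serpinb9f. Serpinb9d had 24, 22 and 34 counts in the Dia2 libraries and 86, 50 and 38 in the control libraries (0.319, 0.229 and 0.363 CPM against 0.766, 0.609 and 0.551 CPM), a log2 fold change of -1.09 ± 0.30 (edgeR adjusted p = 0.00726). Serpinb9f had 22, 20 and 22 counts in the Dia2 libraries and 24, 14 and 20 in the control libraries, with overlapping ranges and no call (0.13 ± 0.37, edgeR adjusted p = 0.781).

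Reads of these copies may be shared with each other or with other genes, which bears on their separate values. The coding sequences of Serpinb9d, Serpinb9e, Serpinb9f and Serpinb9g are 94.3% to 98.7% identical, the closest being Serpinb9f and Serpinb9g. The share of 50-base windows found in another gene was 30.8% for Serpinb9d, 28.4% for Serpinb9e, 78.7% for Serpinb9f, 54.8% for Serpinb9g and 18.0% for Serpinb9c, against 0.378% for Serpinb9 and 5.38% for Serpinb9b. The gene that held most of these windows was Gm11397 for Serpinb9f (63.9%) and Serpinb9g (46.0%), and Gm11385 for Serpinb9c (18.0%). For Serpinb9d and Serpinb9e it was another copy, Serpinb9e (20.7%) and Serpinb9f (18.7%). For Serpinb9b it was Gm36099 (4.9%) on the opposite strand, with 278 shared exonic bases. The sources used here do not state how the counting treated reads from shared windows. Summed over the 7 Serpinb9 rows, the RPKM was 14.0 to 14.4 in the Dia2 libraries and 16 to 18.2 in the control libraries, and Serpinb9 itself made up 57.7% to 61.6% of it in the Dia2 libraries and 46.2% to 50.4% in the control libraries.

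The promoters of these 4 alike copies are shown because Serpinb9d, Serpinb9e and Serpinb9g were lower and Serpinb9f was not called. They are RefSeq sequences of GRCm38.p6 on the plus strand, 5′ to 3′, at chr13:33192705-33193004 for Serpinb9d, chr13:33249358-33249657 for Serpinb9e, chr13:33323827-33324126 for Serpinb9f and chr13:33484540-33484839 for Serpinb9g. Capitals mark bases that differ from Serpinb9g in a global alignment, overhanging ends included.
Serpinb9d: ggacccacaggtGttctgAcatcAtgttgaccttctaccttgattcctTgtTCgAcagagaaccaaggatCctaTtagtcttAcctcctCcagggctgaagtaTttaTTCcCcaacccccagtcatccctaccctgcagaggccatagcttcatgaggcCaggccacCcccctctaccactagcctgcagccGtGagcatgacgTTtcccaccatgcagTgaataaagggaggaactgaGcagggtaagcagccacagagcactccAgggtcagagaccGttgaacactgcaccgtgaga
Serpinb9e: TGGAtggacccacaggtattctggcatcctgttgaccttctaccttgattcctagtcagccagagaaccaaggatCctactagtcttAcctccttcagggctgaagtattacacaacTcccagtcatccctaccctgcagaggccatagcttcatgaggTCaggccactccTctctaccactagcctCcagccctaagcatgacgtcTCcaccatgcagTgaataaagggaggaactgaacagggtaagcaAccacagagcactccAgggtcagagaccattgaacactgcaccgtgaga
Serpinb9f: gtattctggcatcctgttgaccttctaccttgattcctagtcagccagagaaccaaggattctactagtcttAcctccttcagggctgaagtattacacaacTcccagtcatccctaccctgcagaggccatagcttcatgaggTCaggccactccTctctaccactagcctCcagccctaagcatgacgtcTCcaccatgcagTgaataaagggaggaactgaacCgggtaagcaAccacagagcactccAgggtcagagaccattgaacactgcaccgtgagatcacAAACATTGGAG
Serpinb9g: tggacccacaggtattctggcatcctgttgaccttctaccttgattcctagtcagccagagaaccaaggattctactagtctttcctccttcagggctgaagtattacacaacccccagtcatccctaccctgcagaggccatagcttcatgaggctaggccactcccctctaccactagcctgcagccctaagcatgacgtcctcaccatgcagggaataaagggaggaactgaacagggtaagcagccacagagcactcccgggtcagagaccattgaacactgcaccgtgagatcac
Serpinb9d differs from Serpinb9g by 26 such bases and Serpinb9e by 16, and these promoters are 89.5% and 93.4% identical to it over the aligned length. Serpinb9f has 23 such bases, the run at its 3′ end being overhang, and 89.1% identity. These identities count overhanging ends as differences, so they do not rank how alike the shared parts of the promoters are. Serpinb9 and Serpinb9b are more distant, at 48.9% and 45.2% identity to the Serpinb9g promoter. None of these 4 windows holds the TATA box or AP-1 letters given above, which says only that those letters are not in this window.

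**Figure D3:**
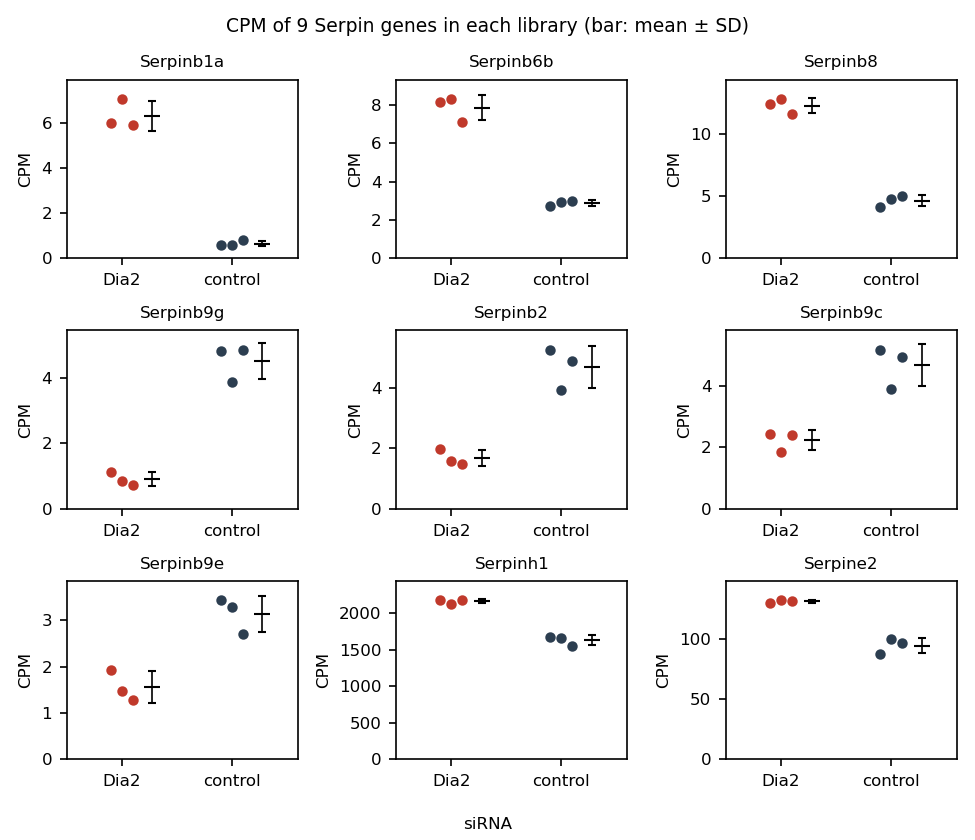
CPM (linear axis from 0) of 9 Serpin genes, 1 point per library with the mean ± SD beside the points (n = 3 each), Dia2 left of control. The 9 genes were picked from called members whose groups did not overlap, so the groups are apart in every panel by that choice. Among all genes tested the groups did not overlap in 64.6%. Values are higher with Dia2 siRNA in Serpinb1a, Serpinb6b, Serpinb8, Serpinh1 and Serpine2, and lower in Serpinb9g, Serpinb2, Serpinb9c and Serpinb9e.

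All but one of the falls lay in 1 stretch of chromosome 13. The clade B cluster there spans 1.16 Mb, from 32842092 to 34002794 (GRCm38), and holds 15 rows. It held 12 of the 23 tested Serpin rows, with 4 higher, 5 lower and 3 uncalled. Among all genes tested 29.3% were higher and 29.9% lower. In genomic order the first 5 rows, Serpinb1a, Serpinb1c, Serpinb6b, Serpinb9 and Serpinb9b, all had log2 fold changes above 0, from 0.11 to 3.28, and 3 of them were called. The next stretch, from Serpinb1b at 242 kb to Serpinb9g at 643 kb from the start of Serpinb1a, held all 5 called falls of the cluster, with only the uncalled Serpinb9f (0.13) among them. Serpinb6a, at the far end, was higher. This order was noticed in the values and was not tested. The call of Serpinb1b was lost under 11 of the 16 alternatives that gave it a value. Serpinb9c, Serpinb9d, Serpinb9e and Serpinb9g share 18.0% to 54.8% of their 50-base windows with other genes, so their falls may not be separate results. The clade A cluster of chromosome 12, 0.798 Mb long with 24 rows, had 2 tested rows, and the clade B cluster of chromosome 1, 0.748 Mb long with 12 rows, had Serpinb2 and Serpinb8.

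**Figure D4:**
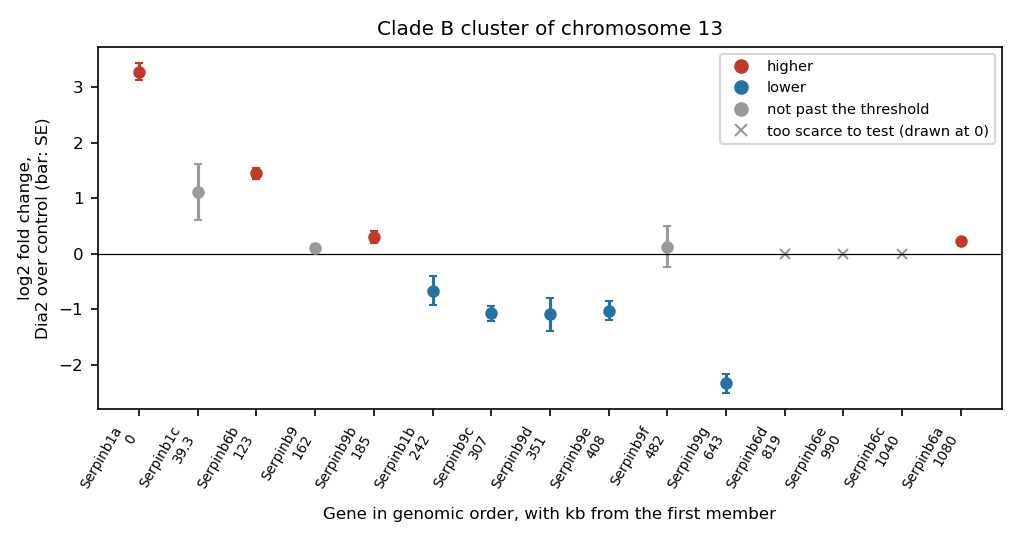
Log2 fold change of Dia2 over control siRNA (bars: SE) for the 15 clade B rows of chromosome 13 in genomic order, with the distance of each gene's start in kb from that of Serpinb1a. The 5 falls lie between 242 and 643 kb, and crosses mark 3 rows too scarce to test, drawn at 0.

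Proteases that serpins inhibit were listed too. Of 36 such genes 19 were tested, and among these 7 rose, 5 fell and 7 missed the threshold, beside 29.3% higher and 29.9% lower among all genes. The called share was near that of all genes, and the median log2 fold change was 0.04 beside 0.01. Among the rises F7, with 22, 22 and 20 counts in the Dia2 libraries and 4, 0 and 8 in the control libraries, passed the filter only through the Dia2 group. The plasminogen activators parted: Plat, the tissue-type activator, was higher at 0.31 (means of 108 CPM in the Dia2 group and 87.3 CPM in the control group), and Plau, the urokinase type, was lower at -0.35 (39.6 CPM in the Dia2 group and 50.5 CPM in the control group). Plasminogen itself (Plg) was at the floor, with means of 0.0139 CPM with Dia2 siRNA and 0 with control siRNA. C1s1 and C1ra, the complement proteases held by the C1 inhibitor, rose at 1.23 and 0.77, and Masp1 of the lectin pathway at 0.59.

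Proteases of immune granules are among the known targets of clade B. Elane, Ctsg and Prtn3, targets of the Serpinb1 type of inhibitor, had means of 0.0142, 0.0299 and 0.0391 CPM in the Dia2 group and 0, 0 and 0.0474 CPM in the control group. Gzmb, the target of Serpinb9, had 8, 12 and 2 counts in the Dia2 libraries and 48, 30 and 28 in the control libraries. It passed the filter only through the control group, at a log2 fold change of -2.25 (edgeR adjusted p = 0.00133). Mcpt8, a granule protease best known from basophils, was lower at 12 and 19.1 CPM in the Dia2 and control groups (-0.67), and Cma1, a mast cell chymase, was higher at 1.01 and 0.548 CPM (0.86, edgeR adjusted p = 0.00859). The cathepsin gene Ctsk fell at -0.47, while Ctsb and Ctsl did not pass, at -0.05 and 0.02.

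Receptors and cofactors of serpins were higher in 11 of 19 tested genes, lower in 4 and uncalled in 4, of 22 listed, beside 29.3% higher and 29.9% lower among all genes (median log2 fold change 0.32 beside 0.01). Among the rises Lrp2, with 20, 36 and 40 counts in the Dia2 libraries and 4, 10 and 6 in the control libraries, passed the filter only through the Dia2 group. Lrp1, the endocytic receptor that clears serpin-protease complexes, had means of 3470 CPM in the Dia2 group and 2750 CPM in the control group (0.33), and the related receptor genes Vldlr and Lrp6 rose at 1.09 and 0.52. Rpsa, a laminin receptor that also binds pigment epithelium-derived factor, rose at 0.91, whereas Pnpla2, a lipase that binds the same factor, fell at -0.63. Thbd, the thrombomodulin gene, fell at -1.56, with means of 55 CPM with Dia2 siRNA and 162 CPM with control siRNA (edgeR adjusted p = 8.99e-09). Plaur, the urokinase receptor, fell at -0.30. Vtn, which encodes the adhesive protein vitronectin, had no count in any library.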

How the data were processed

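RNA of 6 libraries, 3 with Dia2 siRNA and 3 with control siRNA, was analysed from 1 deposited table with 1 row per gene. Per the file headers it holds a gene count and an RPKM value per library, made by the authors, the RPKM per kilobase of the listed coding length. The submitters' processing notes name bcl2fastq, TopHat2 2.0.6 and HTSeq without a role, and the human builds hg19 and GRCh37. The symbols and chromosomes are mouse: 62 of the 63 Serpin rows have a gene of that symbol on the same chromosome in GENCODE M21 (GRCm38), and all 62 spans overlap it, so coordinates were read as GRCm38. No source used here states the annotation, the strand setting or how reads with several matches were counted.

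Genes were filtered with filterByExpr (minimum 10 counts, 15 in total), scaled by TMM and tested over the whole table with edgeR 4.0.16 quasi-likelihood fits (robust; limma 3.58.1, R 4.3.3), Dia2 against control, with Benjamini-Hochberg adjustment at 0.05. The SE is the absolute log2 fold change divided by the square root of F. Alternatives were other scalings and filters, DESeq2 1.42.0, limma-voom, halved counts, the replicate number as a block and libraries left out. No replicate pair agreed within sampling noise (chi-square per degree of freedom 6.7 to 85.2). Named were the tested Serpin genes, with values per library, except 1 that is not reported here and enters the family's counts and shares only, and up to 4 called genes of at least 2 CPM per partner list, with others given to describe a list. Members and lists were chosen with earlier results of these data known. RefSeq promoters matched 51 of 63 rows, and coding sequences were aligned globally with Biopython 1.88.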

Additional observations from a re-analysis of the deposited data

How the results depend on the processing

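The counts of 11 higher and 6 lower Serpin genes ranged from 8 to 13 and from 4 to 7 over all 17 alternatives, within 1.5 times of the main counts. Of 17 called genes, 12 kept direction and side of the threshold under every alternative that gave them a value, and Serpina3g, Serpina3h, Serpinb1b and Serpinb9b were among those that did not. No called gene changed direction. The 2-fold falls of Serpinb9c, Serpinb9d and Serpinb9e were near the cutoff, at log2 fold changes of -1.07, -1.09 and -1.02. Their smallest falls under an alternative were -0.95, -0.92 and -0.9, short of 2-fold. With 1 library left out the counts were 9 to 12 higher and 5 to 7 lower, and over all genes 3651 to 4512 higher and 3677 to 4681 lower. With the replicate number as a block 11 were higher and 5 lower, Serpinb1b being lost (-0.65, adjusted p = 0.0818). Same-numbered libraries did not deviate together (r of -0.08, -0.02 and -0.19). Dia2 replicate 1 and control replicate 3, the libraries richest in Rn45s, had an r of 0.13. A deviation shared by such libraries could hide a pairing, so these values cannot show whether the numbers pair the libraries. Serpinb1b was also lost with no composition factor, upper-quartile factors, DESeq2, no filter and the 2 libraries richest in Rn45s removed (adjusted p = 0.0502 to 0.0594). Without the filter, Serpina1a and Serpina1f, with 0 control counts, also passed as higher (edgeR adjusted p = 0.0475 and 0.0121). They had at most 6 and 8 counts in a library, at or near the floor of 6 counts. These 2 calls rest on a few fragments and are not counted as rises. Scaling moved the median log2 fold change of all genes between -0.01 and 0.04. Among the lists, 4 instead of 7 target proteases were higher when a mean CPM of at least 1 was required, and 1 instead of 2 collagen folding genes was lower under upper-quartile factors, the block and 4 of the fits without 1 library. Of the 40 untested rows, 31 had at most 6 counts in every library, so little can be said of them at this depth.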
